A study of Mus musculus with 29 samples.

Results

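Obese mice that had eaten a high-fat diet were moved to chow or kept on the high-fat diet, and the livers of the 2 groups were compared while both groups ate freely. The comparison took the 4 livers of the control chow group (CC) against the 4 livers of the high-fat diet group (HFD), which are 8 of the 29 libraries analysed here. Genes entered when their mean FPKM over those 8 livers was at least 1 and their names did not begin with Snora, Snord or Mir, which kept 11332 of the 24346 genes in the table. FPKM is the number of sequenced fragments of a gene scaled by the length of its transcript and by the fragments of the whole library.

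All animals were male C57BL/6J mice in which obesity was induced by 10 weeks of high-fat feeding, so the chow livers also came from mice with that history. For the next 4 weeks they received 1 of 4 regimens. HFD mice stayed on the high-fat diet ad libitum, and CC mice received control chow ad libitum. HFD-IF mice ate the high-fat diet with fasting on every other day, and CC-IF mice ate control chow with intermittent fasting. The composition of the diets, the ages of the mice, their body weights and the hours since the last meal do not appear in the labels used here. No mice without that history were analysed here, so a value on chow cannot be set against a lean baseline. The design describes 4 biological replicates in each group, but only 2 HFD-IF livers were available. The p-values weigh each difference against the spread between such replicates.

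The liver is where most amino acids are broken down and their nitrogen is made into urea. It burns fatty acids in mitochondria and peroxisomes or packs them into droplets and lipoproteins, and it makes and takes up cholesterol. Fatty acids act on nuclear receptors of the PPAR family: PPAR alpha drives genes of fat oxidation, and PPAR gamma, scarce in lean liver and abundant in fatty liver, drives genes of fat storage. SREBP-2, encoded by Srebf2, drives cholesterol synthesis when sterols are low, and SREBP-1c, from Srebf1, drives fatty acid synthesis after insulin and carbohydrate. The livers are named here by diet and by the index of their column, 0 to 3, and values for 4 livers are always given in that order.

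The 4 HFD livers had between 15087 and 15581 genes above 0 and the 4 CC livers between 15647 and 15864, with no overlap (two-sided exact permutation test, p = 0.0286, the smallest that 4 against 4 can give). Estimated depth did not overlap either: 9.88 to 11.9 M (mega) fragments in HFD against 12.5 to 15.9 M in CC. The part of depth in the results was not tested, although FPKM is scaled for it. On the first principal component, with 30.4% of the variance, the HFD livers lay between -20.1 and -13.7 and the CC livers between 3.3 and 23.7, with CC 1 the lowest of them. The second, with 20.0%, set HFD 1 (31.0) and CC 1 (15.2) apart from the other 6 livers (-16.0 to 2.41), so counts without both are given beside the main ones. The albumin gene Alb shows a fault of the table: it was listed at 0 in HFD 3, CC 0, CC 2 and CC 3 and between 34135 and 43965 FPKM in the other 4 livers. In all, 11 tested genes were at 0 in some livers and at 100 FPKM or more in others, among them Alb and 3 Mup genes, and none of these 11 is read as a change.

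After the switch to chow more genes were lower than higher. Of the 11332 genes, 546 passed limma's test at a Benjamini-Hochberg adjusted p of 0.05, which is 4.82% of those tested. Of these, 106 (0.935%) were higher on chow and 440 (3.88%) were lower. Changes were mostly modest: 14 of the higher and 45 of the lower genes moved at least 2-fold on the log2(FPKM + 1) scale, and the median called change was 0.52 for the higher and -0.52 for the lower genes. Without regard to the test, the 4 CC values lay wholly above or below the 4 HFD values for 14.2% of genes, 4.6% with CC above and 9.62% with CC below. The imbalance depended on how libraries were scaled: 19.4% of the calls were higher as deposited, 30.9% after median-ratio rescaling (163 higher, 364 lower) and 37.8% after quantile normalization (213 higher, 351 lower). The median change over all genes moved little with scaling, at -0.02 as deposited, 0.01 and 0.01. Without HFD 1 and CC 1 the counts were 50 higher and 219 lower. Leaving out single livers gave 26 to 189 higher and 156 to 480 lower, and 159 of the 546 genes (22 higher, 137 lower) kept their call whichever liver was left out. With HFD 0 left out the counts were lowest, at 26 and 156.

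**Figure D1:**
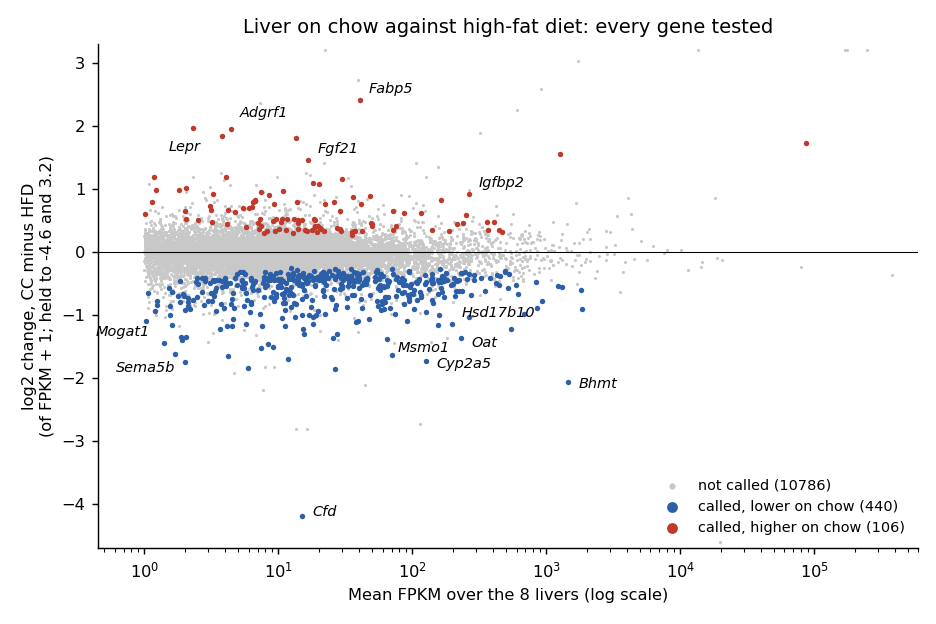
Each point is 1 of the 11332 genes: the horizontal axis is its mean FPKM over the 8 livers on a log scale and the vertical axis its log2 change, CC minus HFD, held to -4.6 and 3.2. The 440 called genes lower on chow (blue) outnumber the 106 higher (red), and Cfd, at -4.19, is the lowest of the called genes. Alb, whose listed zeros are a fault of the table, is among the uncalled points drawn at the lower limit.

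The genes that rose most on chow encoded a fatty acid binding protein, the leptin receptor and regulators of growth and cell shape. Fabp5 (chr3:10012548-10016607, GRCm38), which carries fatty acids in skin, macrophages and fat cells, had 6.62, 9.94, 15.4 and 13.6 FPKM in the HFD livers and 99.9, 96.4, 57.2 and 26.6 FPKM in the CC livers. Every CC liver was above every HFD liver, with CC 3 nearest to them. The log2 change was 2.41 ± 0.41 (SE, n = 4 and 4; limma, adjusted p = 0.0146). Without HFD 1 and CC 1 the Fabp5 change was 2.16 and did not pass (limma, adjusted p = 0.0626). Lepr (chr4:101717404-101815352) encodes the receptor for leptin, the hormone of fat cells that lowers appetite. It stood at 1.11, 0.867, 0.675 and 1.59 FPKM on HFD and 3.97, 6.21, 5.7 and 10.5 FPKM on chow, without overlap and with CC 3 highest. The change in Lepr was 1.83 ± 0.24 (limma, adjusted p = 0.0058). Adgrf1, an adhesion G protein-coupled receptor, was low and uneven on HFD, at 0.421, 1.55, 2.02 and 1.16 FPKM. It was more even on chow, at 7.7, 8.03, 8.12 and 6.25 FPKM (log2 change 1.95 ± 0.21, adjusted p = 0.00396 by limma).

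Btg3, an antiproliferative gene of the BTG/Tob family, was at 1.1, 0.000177, 0.28 and 0.000194 FPKM in the HFD livers, close to 0 in HFD 1 and HFD 3, and at 7.14, 3.64, 2.81 and 3.39 FPKM on chow. Its change was 1.97 ± 0.29 (limma, adjusted p = 0.0095). Tuba8, an alpha-tubulin, was low throughout, with means of 0.323 ± 0.141 FPKM on HFD and 2.05 ± 0.63 on chow (SD, n = 4) and a change of 1.19 ± 0.17 (limma, adjusted p = 0.00802). Mpp4, a scaffold protein of the MAGUK family, was also low and even, at 0.881 ± 0.117 against 2.75 ± 0.538 FPKM (change 0.98, adjusted p = 0.00579 by limma). Cd9, a membrane tetraspanin that is also counted among macrophage markers, rose from 12.8, 20.2, 16.6 and 24.2 to 49.7, 38.5, 38.3 and 38.9 FPKM (change 1.15, adjusted p = 0.0105 by limma). Fabp5, Lepr, Adgrf1, Btg3, Tuba8, Mpp4 and Cd9 kept their calls in each of the 8 fits without 1 liver. Cdc42ep5, an effector of the small GTPase Cdc42, did so in 4 of 8: it had 3.79, 6.94, 4.87 and 4.61 FPKM on HFD and 12.3, 33.3, 31.7 and 11.6 on chow (change 1.81, adjusted p = 0.0219 by limma, up to 0.0714 without HFD 0). Rnu12 and Vaultrc5, short RNAs without a poly-A tail, were also among the 8 largest rises (1.73 and 1.55), but their FPKM cannot be read as abundance in these libraries and their calls held in 1 and 3 of the 8 fits.

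Among secreted liver factors and insulin-related genes, Fgf21, Igfbp2 and Irs2 rose and Inhbe and Lect2 fell. Fgf21 (chr7:45613886-45615490), a hormone that the liver releases in fasting and on low protein intake, stood at 5.12, 8.55, 12.5 and 7.94 FPKM on HFD and 18.4, 33.3, 28.8 and 19.3 on chow. No liver overlapped, and CC 1 and CC 2 were the highest. The change was 1.46 ± 0.26 (limma, adjusted p = 0.0164), and the call was just lost without CC 2 (adjusted p = 0.0509). Igfbp2, a binding protein for insulin-like growth factors that is low in obesity, had 185, 168, 208 and 170.3 FPKM on HFD and 330.3, 335, 285 and 448 on chow, a change of 0.92 ± 0.14 (limma, adjusted p = 0.0095) that held whichever liver was left out. Irs2, an adaptor of the insulin receptor, changed by 1.08 ± 0.26 (limma, adjusted p = 0.0498) and lost its call in 6 of the 8 fits without 1 liver (up to 0.121, without CC 2). Igfbp1, which insulin represses, had 66.3, 84.9, 28.5 and 46.6 FPKM on HFD and 98.5, 203, 256 and 75.4 on chow. CC 3 lay below HFD 1, and the difference of 1.40 ± 0.43 did not pass (limma, adjusted p = 0.0961). In the wider list of glycogen and insulin signalling, 2 of 30 members were called higher (Igfbp2, Irs2), where 0.935% of all genes were. The 1 lower call, a share near the 3.88% of all genes, was Pdk2, a kinase that restrains pyruvate dehydrogenase (-0.43, adjusted p = 0.0383 by limma). The list's median was -0.01, against -0.02 over all genes.

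Inhbe, which encodes the activin E subunit made by hepatocytes, fell from 51.3, 32.4, 37.9 and 35.6 to 14.9, 10.6, 13.3 and 24.6 FPKM, with every CC liver under every HFD liver (change -1.30 ± 0.23; limma, adjusted p = 0.0166, 0.0546 without HFD 0). Lect2, a secreted hepatocyte factor, was almost constant on HFD, at 121, 119, 118 and 118 FPKM, and lower on chow, at 59.8, 81.2, 80.1 and 59.3 FPKM (change -0.77 ± 0.11; limma, adjusted p = 0.0095). The list of leptin and hepatokine signalling, which also holds Adgrf1, was chosen with earlier results of these data known. Of its 30 tested members, 4 rose (Adgrf1, Lepr, Fgf21 and Igfbp2) and 2 fell (Inhbe and Lect2). Over all genes, 0.935% were called higher and 3.88% lower. The list's median was 0.12, against -0.02 over all genes.

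Among the genes called lower, the steepest falls were in Cfd and in Bhmt. Cfd (chr10:79890853-79892655) encodes complement factor D, also named adipsin, a product of fat cells that is switched on in fatty mouse liver. It was at 70.9, 5.29, 8.84 and 34 FPKM in the HFD livers, high in HFD 0 and HFD 3, and at 0.0868, 0.205, 0 and 0.0796 FPKM in the CC livers. The change of -4.19 ± 0.66 (limma, adjusted p = 0.0117) held in every fit without 1 liver. Of 14 adipocyte markers, the defining genes Adipoq (adiponectin), Lep (leptin), Retn (resistin) and Ucp1 were at 0 in all 8 livers. Without Cfd, which is on that list, and without Fabp4, its most abundant gene, the other 12 markers summed to 43.9, 11.01, 22.3 and 28.9 FPKM on HFD and 9.19 to 14.02 FPKM on chow, with HFD 1 inside the chow range. Without the droplet genes Cidea and Cidec as well, the 10 left summed to 10.1 to 17.0 and 8.49 to 11.8 FPKM, which overlap. Cidea, a lipid droplet protein, followed the same livers as Cfd, with 18.6, 0, 0.335 and 3.88 FPKM on HFD and at most 0.366 FPKM on chow. The cytochrome Cyp2b9, from a family of near-identical copies, did so as well, with 44.4, 0.175, 0.622 and 63 FPKM on HFD and at most 0.808 FPKM on chow.

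Bhmt (chr13:93616675-93637961), which makes methionine from homocysteine with betaine as the methyl donor, was at 2507, 3004, 2189 and 1725 FPKM on HFD and 478, 671, 607 and 473 FPKM on chow. All 4 CC livers lay below the lowest HFD liver, HFD 3. The change was -2.07 ± 0.18 (limma, adjusted p = 0.00146). Other large falls were in low-level genes of the cell surface. Sema5b, a semaphorin, averaged 3.67 ± 1.52 FPKM on HFD and 0.346 ± 0.117 on chow (change -1.74, adjusted p = 0.00535 by limma). Clstn3, a calsyntenin with a fat-cell form that acts on lipid droplets, averaged 6.95 ± 1.93 and 1.47 ± 0.252 FPKM (change -1.65, adjusted p = 0.00435 by limma). Raet1d, a ligand of the natural killer receptor NKG2D with close copies in the genome, changed by -1.84 ± 0.31, and Lrtm1, a leucine-rich repeat protein, by -1.62 ± 0.23 (limma, adjusted p = 0.0146 and 0.00878). Acss3, a mitochondrial acyl-CoA synthetase for short chains, fell from 19.5, 9.28, 20.2 and 26 to 3.22, 4.79, 4.42 and 7.23 FPKM (change -1.70, adjusted p = 0.016 by limma, 0.0552 without HFD 0).

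The smallest p-values belonged to genes with little spread among mice. Hsd17b10 (chrX:152001845-152004442), a mitochondrial dehydrogenase of isoleucine and branched fatty acid breakdown, was at 277, 265, 285 and 265 FPKM on HFD and 106, 122, 137 and 129 on chow, a change of -1.14 ± 0.09 (limma, adjusted p = 0.00118). Them7, a thioesterase family member, was at 18.2, 15.1, 16 and 14.9 FPKM on HFD and 6.37, 6.8, 6.7 and 6.21 on chow (change -1.18 ± 0.08; limma, adjusted p = 0.0011). Slc47a1, the MATE1 exporter of organic cations, averaged 64.2 ± 2.49 FPKM on HFD and 30.2 ± 3.24 on chow (change -1.07, adjusted p = 0.00118 by limma). In all 3 genes the CC livers lay wholly below the HFD livers.

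**Figure D2:**
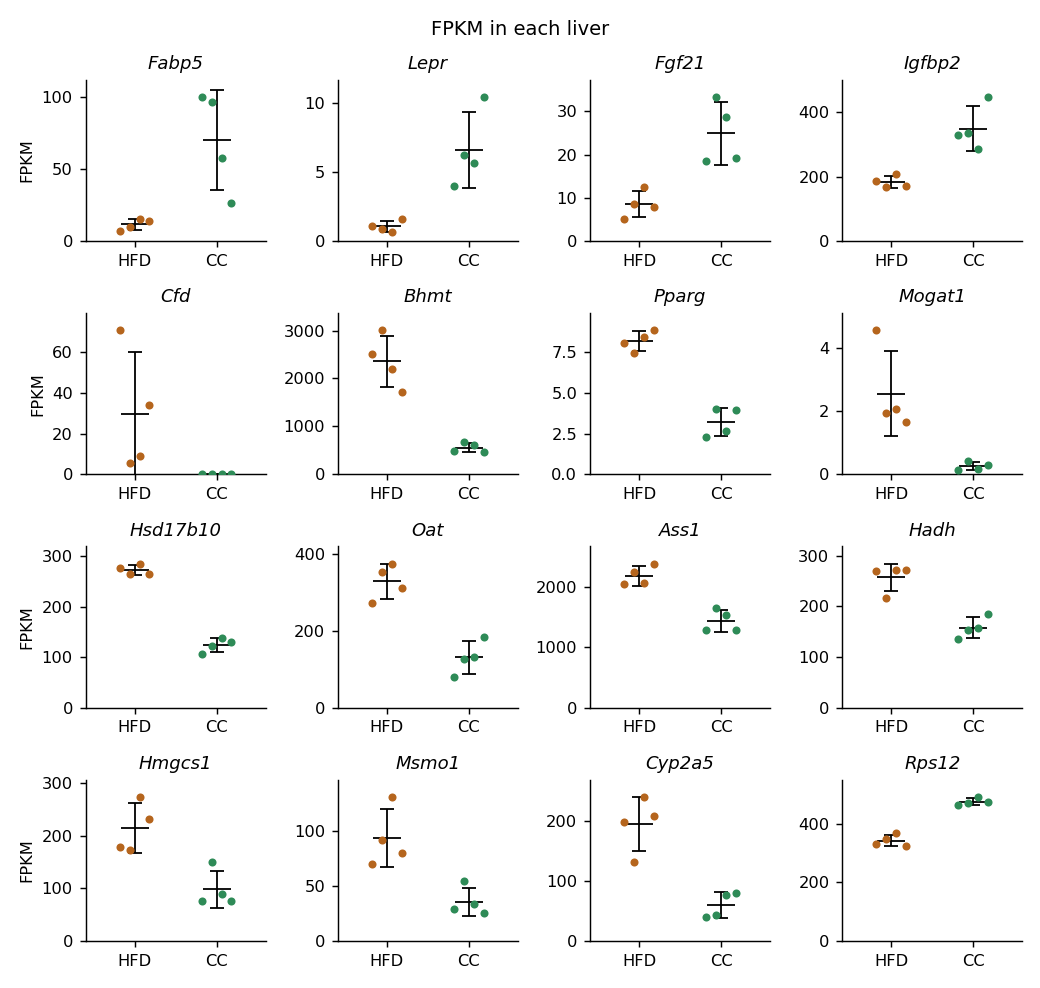
FPKM of 16 genes in each liver (points, brown for HFD and green for CC, n = 4 each) with the mean and SD (bars), each panel from 0. The groups do not overlap in any panel, and Cfd is high in 2 of the 4 HFD livers.

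Genes that break down amino acids, make urea and move methyl groups fell together. Of 58 tested genes of amino acid breakdown, 26 were called lower and 0 higher, where 3.88% of all genes were called lower and 0.935% higher; the other 32 did not pass. The median change was -0.37, against -0.02 over all genes. CC livers lay wholly under the HFD livers for 37 of the 58, where 9.62% of all genes had that pattern. Agxt2, an aminotransferase of glyoxylate and beta-aminoisobutyrate, fell from 78.3, 81.2, 74 and 71.9 to 36.1, 44.4, 40.9 and 38.3 FPKM (change -0.92 ± 0.08; limma, adjusted p = 0.00146). The first enzyme of proline breakdown, Prodh, was at 89.4, 87.8, 68.3 and 72.6 FPKM on HFD and 46.3, 50.7, 41.3 and 41.9 on chow (-0.80, adjusted p = 0.00706 by limma). For tyrosine, Gstz1, the maleylacetoacetate isomerase, changed by -0.62 ± 0.07. For branched chains, Bckdhb, a subunit of the branched-chain ketoacid dehydrogenase, changed by -0.49 ± 0.06 and Mccc2, of leucine breakdown, by -0.55 ± 0.07. Ido2, of tryptophan breakdown, changed by -0.68 ± 0.11. For these 4 genes limma's adjusted p lay between 0.0045 and 0.0123. The number of members called lower ranged from 11 (without HFD 0) to 23 over those fits and was 11 without HFD 1 and CC 1.

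In the urea cycle list 12 of 20 tested genes fell and 0 rose, where 3.88% of all genes were called lower. The median was -0.46, against -0.02 over all genes. The list holds the cycle and the enzymes that feed it nitrogen. Oat (chr7:132557478-132576398), which turns ornithine into glutamate semialdehyde, was at 272, 353, 374 and 312 FPKM on HFD and 79.9, 126, 132 and 183 on chow. All CC livers were lower, CC 0 the most (change -1.37 ± 0.22; limma, adjusted p = 0.0125). Car5a, the mitochondrial carbonic anhydrase that supplies bicarbonate to the cycle, averaged 72 ± 3.97 FPKM on HFD and 39.2 ± 2.32 on chow (change -0.86 ± 0.07; limma, adjusted p = 0.00118). The alanine aminotransferases Gpt and Gpt2 changed by -0.77 ± 0.08 and -0.64 ± 0.09 (limma, adjusted p = 0.00367 and 0.00878). Within the cycle itself, Asl had 259, 301, 269 and 317 FPKM on HFD and 194, 187, 207 and 157 on chow (change -0.62, adjusted p = 0.0145 by limma). Ass1 (chr2:31470207-31520672), which makes argininosuccinate, had 2038, 2241, 2054 and 2378 FPKM on HFD and 1278, 1649, 1523 and 1286 on chow (change -0.61, adjusted p = 0.0202 by limma). Arg1, the last enzyme, averaged 984 ± 58.6 and 707 ± 60.8 FPKM (change -0.48, adjusted p = 0.0211 by limma). Calls on Ass1 and Arg1 held in 5 and 5 of the 8 fits without 1 liver, with adjusted p up to 0.0565 and 0.06. Cps1, the mitochondrial enzyme that starts the cycle, and Glud1, glutamate dehydrogenase, both chosen after their values were seen, differed by 0.03 and 0.02 (limma, adjusted p = 0.916 and 0.921). Without HFD 0 the list had 6 lower calls, and without HFD 1 and CC 1 also 6.

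Of 28 genes of methionine, choline and one-carbon metabolism, 13 fell and 0 rose, where 3.88% of all genes were called lower. The median was -0.34, against -0.02 over all genes. Besides Bhmt, Nnmt, which spends methyl groups on nicotinamide, was at 80.5, 189, 62.7 and 104 FPKM on HFD and 33, 31.3, 48.3 and 19.7 on chow, with HFD 1 far above the rest (-1.63 ± 0.34; limma, adjusted p = 0.0321, 0.0777 without HFD 3). Mat1a, which makes S-adenosylmethionine in hepatocytes, averaged 1112 ± 104 FPKM on HFD and 608 ± 130.04 on chow (-0.89 ± 0.15; limma, adjusted p = 0.0135). Sardh and Dmgdh, which take the methyl groups off sarcosine and dimethylglycine, the product of Bhmt, changed by -0.68 ± 0.09 and -0.66 ± 0.10 (limma, adjusted p = 0.00574 and 0.00878). Cth, the last step from methionine to cysteine, changed by -0.81 ± 0.13 and Shmt2, a mitochondrial serine hydroxymethyltransferase, by -0.46 ± 0.07 (limma, adjusted p = 0.0118 and 0.0095). Lower calls in the list numbered 8 without HFD 0, HFD 3 or CC 1 and 7 without HFD 1 and CC 1.

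**Figure D3:**
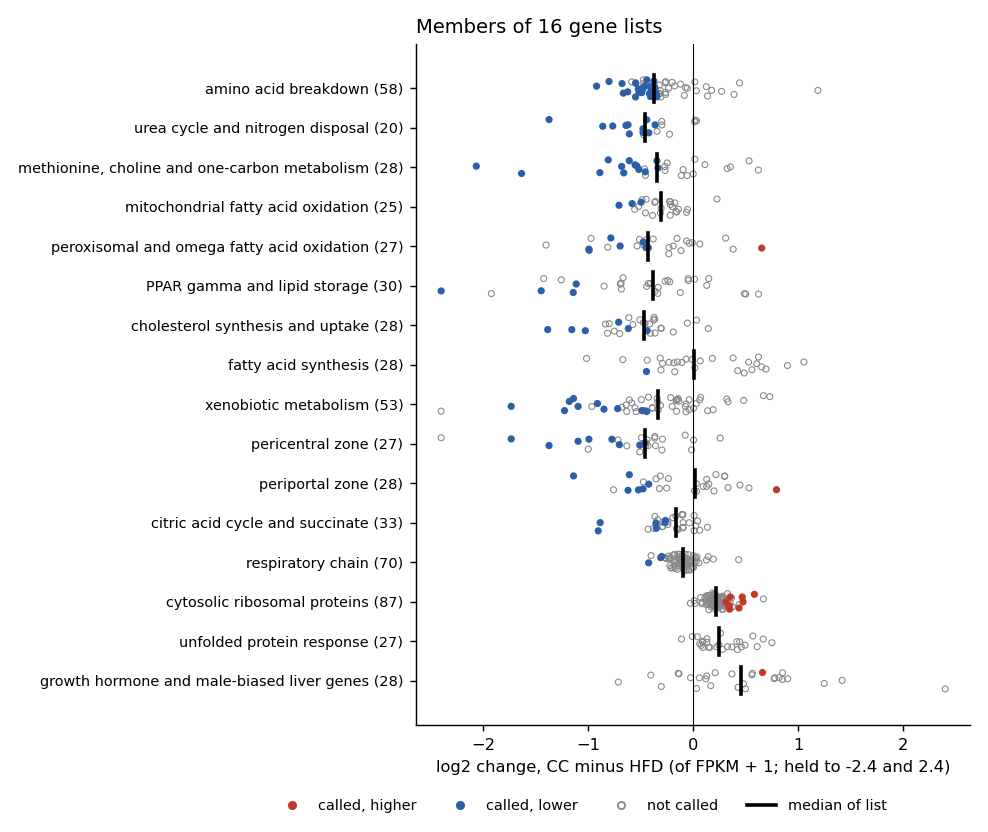
Log2 changes, CC minus HFD, of the tested members of 16 gene lists (number tested in brackets): filled points passed limma's adjusted p of 0.05, open points did not, and black bars are list medians. Called members of the amino acid, urea and one-carbon lists all lie to the left of 0, and called ribosomal proteins all lie to the right.

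Fat-burning genes were lower on chow with a wide range among the CC livers. For mitochondrial fatty acid oxidation, 24 of 25 genes had lower means on chow, and 3 passed the test, all lower: Hadh, Echs1 and Eci1, which act in the later steps of the cycle or on unsaturated chains. The list's median was -0.31, against -0.02 over all genes, of which 3.88% were called lower. The medians of single CC livers, taken against the HFD mean, were -0.61, -0.36, -0.17 and -0.01. Hadh had 269, 216, 271 and 272 FPKM on HFD and 135, 153, 157 and 185 on chow (change -0.71 ± 0.11; limma, adjusted p = 0.0128). Echs1 had 127, 126, 127 and 130.3 FPKM on HFD and 83.2, 98, 84.7 and 95.3 on chow (change -0.50 ± 0.07; limma, adjusted p = 0.0095). Eci1 changed by -0.58 ± 0.10 (limma, adjusted p = 0.0182, 0.0564 without HFD 0). Without CC 0 the list's median was -0.20, and without CC 3 the lower calls numbered 8.

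Peroxisomal and omega oxidation followed the same order of livers. Of 27 genes, 7 fell and 1 rose, where 3.88% of all genes were called lower and 0.935% higher. The median was -0.43, against -0.02 over all genes, with CC livers at -0.75, -0.43, -0.24 and -0.10. Acox2, the branched-chain oxidase, and Acaa1a, the peroxisomal thiolase with a close copy in the genome, changed by -0.48 ± 0.09 and -0.70 ± 0.15 (limma, adjusted p = 0.0211 and 0.0348). The gene that rose, Cyp4a12a, is a male-biased fatty acid hydroxylase with a near-identical copy, so its reads may be shared; it went from 56 ± 8.66 to 88 ± 6.81 FPKM (limma, adjusted p = 0.0162). The list had 0 lower calls without HFD 0 or CC 1, 1 without HFD 3 or CC 0, 10 without CC 3, and 1 without HFD 1 and CC 1. Among 8 ketone body genes, 1 rose, Fgf21, and 2 fell. Among those, Acat1 changed by -0.49 (limma, adjusted p = 0.0445), a call that held in 2 of the 8 fits without 1 liver.

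PPAR gamma itself fell. Pparg (chr6:115360951-115490399) was at 8.06, 7.47, 8.44 and 8.86 FPKM in the HFD livers and 2.32, 4.01, 2.67 and 3.93 FPKM in the CC livers, a change of -1.14 ± 0.14 (limma, adjusted p = 0.00543) that held whichever liver was left out. In its list of 30 storage genes, 4 fell and 0 rose, where 3.88% of all genes were called lower. Lower means on chow were found in 24 of 30, and the median was -0.39, against -0.02 over all genes. Mogat1, which makes diacylglycerol and is a known target of PPAR gamma in fatty liver, had 4.57, 1.94, 2.07 and 1.64 FPKM on HFD and 0.144, 0.412, 0.167 and 0.277 on chow, with HFD 0 highest (change -1.45 ± 0.22; limma, adjusted p = 0.0111). Fitm1, which helps form lipid droplets, changed by -1.11 ± 0.21 (limma, adjusted p = 0.0212, 0.0678 without HFD 0). Cidec, which enlarges droplets, had 13.1, 0.922, 4.9 and 14.6 FPKM on HFD and 0.426, 0.598, 0.832 and 1.89 on chow. HFD 1 lay within the CC range, and the difference of -1.92 ± 0.59 did not pass (limma, adjusted p = 0.0981). Cd36, a fatty acid carrier, had 43.2, 12, 25.6 and 39.1 FPKM on HFD and 8.01, 11.5, 8.63 and 16.4 on chow, again with HFD 1 among the CC values (-1.26 ± 0.37; limma, adjusted p = 0.0872). Both genes, and Cfd, Cidea and Cyp2b9, were highest in HFD 0 and HFD 3. With HFD 1 left out, 8 members of the list passed as lower, and without HFD 1 and CC 1, 7.

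Cholesterol genes were lower on chow, and their promoters can be shown beside them. Of 28 genes of synthesis and uptake, 6 fell and 0 rose, where 3.88% of all genes were called lower. In this list 26 had lower means, and the median was -0.47, against -0.02 over all genes. The 250 bases before the start site are printed for 4 of the 6 (RefSeq, GRCm38.p6, gene strand, 5′ to 3′), because their genes fell together and promoters of this pathway are known for the CCAAT box, which the factor NF-Y binds next to SREBP-2. Capitals mark CCAAT, or ATTGG where the box lies on the other strand. Hmgcs1 lies at chr13:119690101-119690350 (plus strand), Msmo1 at chr8:64733579-64733828 (minus strand), Mvk at chr5:114444019-114444268 (plus strand) and Srebf2 at chr15:82147019-82147268 (plus strand).
Hmgcs1: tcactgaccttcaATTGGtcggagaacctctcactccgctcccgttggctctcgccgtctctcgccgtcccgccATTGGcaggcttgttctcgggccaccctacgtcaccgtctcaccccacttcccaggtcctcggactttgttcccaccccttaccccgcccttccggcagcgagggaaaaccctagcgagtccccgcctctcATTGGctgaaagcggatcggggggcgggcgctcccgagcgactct
Msmo1: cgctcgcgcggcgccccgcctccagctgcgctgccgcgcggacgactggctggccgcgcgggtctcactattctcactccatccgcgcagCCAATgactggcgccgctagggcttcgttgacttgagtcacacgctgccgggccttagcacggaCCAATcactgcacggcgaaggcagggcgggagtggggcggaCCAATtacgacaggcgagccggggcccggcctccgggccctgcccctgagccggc
Mvk: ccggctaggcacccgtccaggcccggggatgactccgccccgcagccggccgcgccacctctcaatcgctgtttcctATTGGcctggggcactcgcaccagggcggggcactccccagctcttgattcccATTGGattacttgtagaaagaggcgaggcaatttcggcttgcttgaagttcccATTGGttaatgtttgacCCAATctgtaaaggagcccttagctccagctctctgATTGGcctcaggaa
Srebf2: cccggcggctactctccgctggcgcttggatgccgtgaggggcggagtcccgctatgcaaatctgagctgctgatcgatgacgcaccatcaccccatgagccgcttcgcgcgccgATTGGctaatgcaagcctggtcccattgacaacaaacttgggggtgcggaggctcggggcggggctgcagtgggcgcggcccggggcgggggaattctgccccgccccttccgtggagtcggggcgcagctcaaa

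The windows held 3 boxes for Hmgcs1, 3 for Msmo1, 5 for Mvk and 1 for Srebf2. Over windows of 250 bases before and 50 after the start, CCAAT on either strand was found in 18 of the 20 tested cholesterol genes with a RefSeq promoter (90%), in 11096 of 27025 genes with one (41.1%) and in 42.7% of tested genes. The share was 48.6% of 331 genes called lower, 32.5% of 83 called higher and 82.6% of 23 genes of the unfolded protein response, a list with 0 called genes. For the sterol response element of the SREBP type, only 1 exact spelling was searched. That spelling was in 0 of the 20 and in 0.270% of all genes. The printed windows of Hmgcs1 and Srebf2 each hold a stretch that differs from it by 1 letter. Such variants were not counted, so the search cannot show whether these promoters lack the element.

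Hmgcs1, the cytosolic HMG-CoA synthase, was at 178, 173, 273 and 232 FPKM on HFD and 76.5, 149.7, 89.5 and 75.3 FPKM on chow, a change of -1.16 ± 0.23 (limma, adjusted p = 0.0258). CC 1 was the highest CC liver and stood just under HFD 1. Msmo1, a demethylase late in the pathway, had 70.1, 91.5, 131 and 80.2 FPKM on HFD and 28.5, 54.1, 33.8 and 25.6 on chow (change -1.39 ± 0.25; limma, adjusted p = 0.0174). Mvk, mevalonate kinase, averaged 18.1 ± 2.94 FPKM on HFD and 8.76 ± 3.79 on chow (change -1.03, adjusted p = 0.0421 by limma). Srebf2 changed by -0.44 ± 0.09 (limma, adjusted p = 0.0321). Sqle, squalene epoxidase, had 19.5, 35.3, 43.2 and 25.8 FPKM on HFD and 18.5, 30.2, 19 and 8.0 on chow, overlapping, and did not pass (-0.75 ± 0.36; limma, adjusted p = 0.26). These calls were fragile: without CC 0 the list had 0 lower calls, and Hmgcs1, Msmo1, Mvk and Srebf2 reached adjusted p of 0.0541 to 0.108 in their worst fit without 1 liver. The list's median stayed between -0.67 and -0.29 in those fits.

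Fatty acid synthesis gave no such shift. Its 28 genes had 14 higher and 14 lower means and a median of 0.00 that ran from -0.18 to 0.35 in the fits without 1 liver. The list had 1 call, lower on chow, where 3.88% of all genes were called lower. Fasn, the fatty acid synthase, ranged from 115 to 382 FPKM on HFD and from 77.1 to 425 on chow, so the groups overlapped throughout (-0.01 ± 0.52; limma, adjusted p = 0.995). Scd1, the desaturase, differed by 0.60 ± 0.39 and Srebf1 by -0.67 ± 0.29, neither past the threshold (limma, adjusted p = 0.401 and 0.21). The standard errors of these 3 genes, 0.29 to 0.52, limit what could be detected.

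Detoxification and zonation genes came next in the number of falls. Of 53 genes of xenobiotic metabolism, 10 fell and 0 rose, where 3.88% of all genes were called lower. The median was -0.34, against -0.02 over all genes. In this list 3 lower calls were left without HFD 0 or HFD 3 and 4 without HFD 1 and CC 1. Cyp2a5, a nicotine and coumarin hydroxylase from a family of close copies, was at 198, 132, 239 and 208 FPKM on HFD and 39.3, 42.3, 76.7 and 78.9 on chow (change -1.73 ± 0.26; limma, adjusted p = 0.0105). Aldh1a1, the retinal dehydrogenase, had 741, 836, 788 and 688 FPKM on HFD and 219, 336, 448 and 338 on chow (change -1.23 ± 0.19; limma, adjusted p = 0.0106). Sult1b1, a sulfotransferase, and Aldh1b1, a mitochondrial aldehyde dehydrogenase, changed by -1.18 ± 0.10 and -1.14 ± 0.21 (limma, adjusted p = 0.00118 and 0.0208). Ephx2, the soluble epoxide hydrolase, changed by -0.49 ± 0.10 (limma, adjusted p = 0.0277). In the glutathione list, Gstt3, a glutathione transferase, fell from 39.2, 29.2, 32.8 and 47.5 to 12, 13.3, 12.4 and 17.3 FPKM (-1.36 ± 0.16; limma, adjusted p = 0.0045).

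Liver lobules are zoned, with genes expressed around the central vein or around the portal tract. Of 27 pericentral genes, 8 fell and 0 rose, where 3.88% of all genes were called lower and 0.935% higher. The list had 25 lower means and a median of -0.46, against -0.02 over all genes. Cyp2a5, Oat and Lect2, given above, are on this list. Glul, glutamine synthetase and the sharpest pericentral marker, had 764, 633, 562 and 578 FPKM on HFD and 521, 582, 461 and 492 on chow and did not pass (-0.30 ± 0.12; limma, adjusted p = 0.176). Of 28 periportal genes, 6 fell and 1 rose, but the median was 0.02. Those that fell were Asl, Ass1, Arg1 and other enzymes already counted in the nitrogen and detoxification lists, and the riser was Cdh1, E-cadherin, from 20.3, 21.4, 19.5 and 13.6 to 40, 37.8, 31.3 and 23.9 FPKM (0.79 ± 0.18; limma, adjusted p = 0.0405, 0.102 without CC 0). A single fit without 1 liver left 4 to 11 lower calls in the pericentral list and 1 to 6 in the periportal list, whose median ran from -0.14 to 0.06.

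Bile acid synthesis had 3 lower calls among 28 genes, where 3.88% of all genes were called lower. The list's median was -0.17, against -0.02 over all genes. Akr1d1, the steroid 5-beta-reductase, fell from 80, 67.9, 77.6 and 88.7 to 47.6, 46.7, 53.5 and 41.6 FPKM (-0.72 ± 0.10; limma, adjusted p = 0.00815). Hsd3b7, an early enzyme of the same route, changed by -0.45 ± 0.11, and its call was lost in each of the 8 fits without 1 liver (limma, adjusted p = 0.0464). Cyp7a1, the rate-limiting enzyme, had 7.6, 50.1, 38.9 and 16.2 FPKM on HFD and 8.81, 28.8, 8.25 and 5.97 on chow; both groups spread widely and overlapped (-1.0 ± 0.60; limma, adjusted p = 0.368).

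Ribosomal protein genes stood slightly higher on chow. Of 87 genes, 9 rose and 0 fell, against 0.935% higher calls over all genes; 86 had higher means, and the median was 0.22. Rps12 had 332, 348, 368 and 324 FPKM on HFD and 466, 471, 492 and 477 on chow, a change of 0.47 ± 0.07 (limma, adjusted p = 0.0095). Rpl12 had 182, 219, 212 and 188 FPKM on HFD and 320.4, 302, 315 and 263 on chow (0.58 ± 0.09; limma, adjusted p = 0.0128). Rpl36a, Rpl31, Rpl21 and Rpl35a changed by 0.34 to 0.47, with adjusted p of 0.0162 to 0.0299 by limma. Many processed copies of these genes exist, so part of their reads may be shared. The number of risers was 19 after median-ratio rescaling, 37 after quantile normalization, 2 without HFD 0 and 3 without HFD 1 and CC 1, with the median between 0.18 and 0.30 in all of these and the other fits without 1 liver. HFD 0 and HFD 3 were the lowest livers of the list (-0.07 and -0.12 against the HFD mean), and HFD 1 the highest on HFD (0.13).

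The unfolded protein response leaned the same way without a call. In 25 of its 27 genes the mean was higher on chow, with a median of 0.24, but 0 passed limma's threshold. With array weights 2 passed, and 1 each without HFD 1, without CC 3 and without HFD 1 and CC 1. At an unadjusted p under 0.05 the whole comparison held 2498 genes. Dnajb9, an endoplasmic reticulum chaperone, had 49.7, 49.4, 37 and 41.1 FPKM on HFD and 105, 80.6, 69.8 and 52.3 on chow, apart but not past the threshold (0.75 ± 0.19; limma, adjusted p = 0.0581). Herpud1, of protein disposal, and Ppp1r15a, which restarts translation, differed by 0.44 ± 0.15 and 0.37 ± 0.12 (limma, adjusted p = 0.133 and 0.12). The list's median varied within groups about as much as between them: -0.28 to 0.37 in the HFD livers and -0.08 to 0.49 in the CC livers.

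Succinate is named in the title of the study, and most of its genes did not pass the test. Of 33 genes of the citric acid cycle and succinate metabolism, 6 fell and 0 rose, where 3.88% of all genes were called lower. The median was -0.17, against -0.02 over all genes. Abat, which feeds succinate from GABA, fell from 139, 138, 129 and 128 to 59.2, 72.9, 78 and 75 FPKM (-0.90 ± 0.09; limma, adjusted p = 0.00367). Slc25a10, the mitochondrial carrier that exchanges succinate and malate for phosphate, had 57.8, 37.4, 57.5 and 68.8 FPKM on HFD and 25.9, 28.9, 24.7 and 37.2 on chow (-0.89 ± 0.19; limma, adjusted p = 0.0322, 0.0911 without HFD 0). Dlst, of the oxoglutarate dehydrogenase, Mdh1, the cytosolic malate dehydrogenase, and Aco1, the cytosolic aconitase, changed by -0.36 ± 0.06, -0.35 ± 0.07 and -0.27 ± 0.06 (limma, adjusted p = 0.0187, 0.0241 and 0.0375). Succinate dehydrogenase has 4 subunits. Sdhc had 181, 179, 166 and 179 FPKM on HFD and 145, 146, 149 and 147 on chow (-0.26 ± 0.06; limma, adjusted p = 0.043), a call that was lost in each of the 8 fits without 1 liver. Sdha, Sdhb and Sdhd differed by -0.17 ± 0.06, -0.24 ± 0.06 and -0.10 ± 0.07 and did not pass (limma, adjusted p = 0.176, 0.0607 and 0.472). For Sdha and Sdhb the CC livers still lay wholly below the HFD livers, and for Sdhd the groups overlapped. In the whole list 14 of 33 genes had CC livers wholly below, where 9.62% of all genes did. The succinate receptor Sucnr1 had 40.4, 30.6, 48.7 and 39.3 FPKM on HFD and 32.6, 32.7, 27.5 and 23.7 on chow, with overlap (-0.43 ± 0.15; limma, adjusted p = 0.132). The list had 1 lower call without HFD 0, HFD 2, HFD 3 or CC 0, and 9 without HFD 1. Of 70 respiratory chain genes 3 were called lower (Ndufb3, Atp5g3 and Ndufs3, -0.42, -0.31 and -0.30), a share near the 3.88% of all genes called lower, with a median of -0.10; 0 lower calls were left after quantile normalization (median -0.02) and in 5 of the 8 fits without 1 liver, those without HFD 0, HFD 2, HFD 3, CC 0 or CC 1.

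Few cytoskeletal and interferon genes passed, in both directions, where 0.935% of all genes were called higher and 3.88% lower. Of 36 genes of cell shape, 4 rose, among them Tubb5 (0.41) and Tuba1b (0.41), both tubulins, and 2 fell. Actg1, gamma-actin, fell from 137, 119, 104 and 113 to 75.7, 75.4, 65.6 and 65.6 FPKM (-0.73 ± 0.10; limma, adjusted p = 0.00635) in every fit without 1 liver. Of 32 interferon genes, 1 rose, Bst2, tetherin (0.62 ± 0.15, limma, adjusted p = 0.0445). The 2 that fell were Psmb9 and Tap1, of antigen processing (-0.83 ± 0.20 and -0.42 ± 0.09, limma, adjusted p = 0.0494 and 0.0291). These calls were fragile: those on Bst2 and Tap1 held in 2 and 3 of the 8 fits without 1 liver. In those fits the list had 0 to 1 lower calls and 0 to 2 higher ones. Markers of other cells are given beside these genes, and their part in the results was not tested. All 7 tested MHC class II genes had higher means on chow, with 0 calls. Their list summed to 102.2 to 121.9 FPKM on HFD and 122.3 to 167.1 on chow, without overlap. Of B and plasma cell markers 1 was tested, Sdc1, and it was called lower. That list summed to 77.5 to 106.3 FPKM on HFD and 62.8 to 70.1 on chow, but without Sdc1 to 2.14 to 2.98 and 1.45 to 3.39, which overlap. For Kupffer cells 0 of 14 markers passed, and their summed FPKM ran from 208 to 325 on HFD and from 227 to 396 on chow. Summed markers of liver endothelium ran from 263 to 314 on HFD and from 305 to 356 on chow, and those of stellate cells from 343 to 459.8 and from 402 to 465, with 0 calls in either. Of infiltrating macrophage markers 1 of 5 tested, Cd9, was called, and the other 14 listed summed to 63.0 to 86.4 FPKM on HFD and 68.6 to 99.4 on chow, which overlap. In whole tissue, fewer cells of a type and less RNA per cell cannot be told apart. Of 14 markers of exocrine pancreas and gut, 11 stayed under 0.5 FPKM in all 8 livers, and 4 of them, with Prss1, were at 0. The sum of the list, mostly Fabp2, ran from 86.0 to 144.7 FPKM on HFD and from 53.7 to 80.5 on chow, without overlap. Without Fabp2 it ran from 8.15 to 21.1 and from 5.95 to 13.2 FPKM, which overlap. Of the 2 members tested, 0 passed. Muscle markers were at or near 0 (Ckm at most 0.128 FPKM).

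The fasted livers show the same diet contrast in other mice. Between CC-IF (n = 4) and HFD-IF (n = 2), 86 of the 11332 genes passed (0.759%), and the difference between the diet changes with and without fasting passed for 147 (1.3%). These counts rested on the 2 HFD-IF livers: 1724 genes passed without HFD-IF 0 and 11 without HFD-IF 1, where the lone HFD-IF library is taken to have the spread of the other groups. The 2 livers also differed in markers of other cells, as medians of log2 values against the HFD mean: MHC class II genes stood at 1.76 in HFD-IF 1 and -0.26 in HFD-IF 0, infiltrating macrophage markers at 1.73 and -0.47, Kupffer cell markers at 1.15 and -0.46, T and NK cell markers at 1.05 and -0.25, and stellate cell markers at 1.08 and 0.06. The part of these cells in the fasted contrast was not tested. Of the 440 genes lower on chow under free feeding, 191 were also lower under fasting (43.4%, against 47.2% of all genes with lower means), and their median change there was 0.06. Of the 106 higher genes, 65 were also higher (61.3%, against 52.9%), with a median of 0.07. The difference itself was called for 79 of the 440 and 6 of the 106. These genes were chosen by their change under free feeding, which is a term of the difference, so these counts follow in part from that choice. Without HFD-IF 0 and without HFD-IF 1, the lower genes with the same direction numbered 159 and 250, and called differences among them 229 and 17. Their median change under fasting was then 0.16 and -0.04, so its sign did not hold.

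Lepr differed by 1.83 ± 0.24 under free feeding and by 2.04 ± 0.45 under fasting, where it did not pass (limma, adjusted p = 0.0558). The difference was 0.21 ± 0.59 (limma, adjusted p = 0.884). Fgf21 under fasting stood at -2.44 ± 0.63 (difference -3.90 ± 0.81; limma, adjusted p = 0.0385). Adgrf1 differed by 0.02 ± 0.25 under fasting (difference -1.92 ± 0.32; limma, adjusted p = 0.019). In the urea list, 13 of 20 genes had higher means on CC-IF than on HFD-IF, and the difference passed for 5. Asl, at -0.62 under free feeding, stood at 0.83 ± 0.14 under fasting, and Arg1 at 0.57 ± 0.11 (limma, adjusted p of the differences = 0.00886 and 0.00886). Cyp2a5 showed 1.42 ± 0.32 under fasting (difference 3.15 ± 0.41; limma, adjusted p = 0.00886). Cholesterol genes were low in every fasted liver whichever the diet: their median lay at -1.36 and -1.96 in HFD-IF and from -1.57 to -1.29 in CC-IF, against -0.99 to -0.08 in the CC livers, all relative to the HFD mean.

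**Figure D4:**
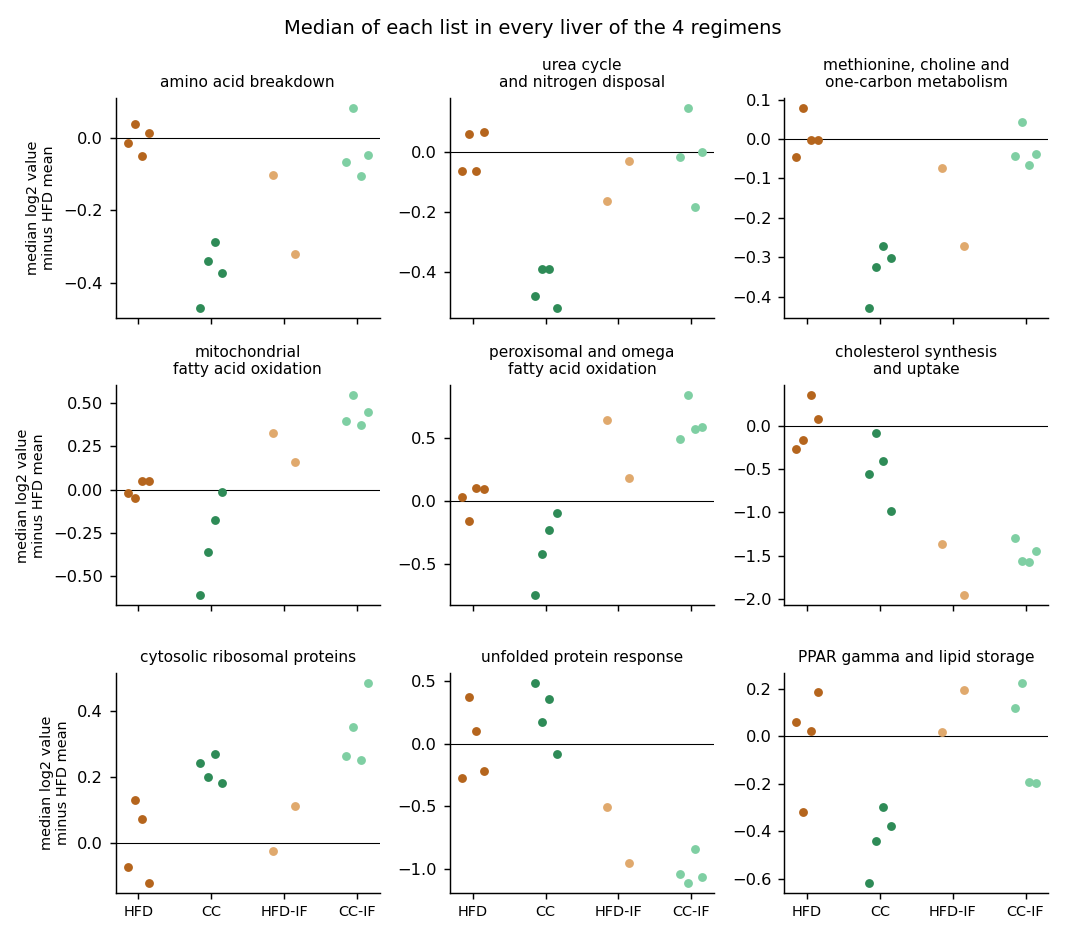
For 9 gene lists, each point is the median over members of log2(FPKM + 1) in 1 liver minus the mean of the 4 HFD livers, by regimen (HFD, CC and CC-IF n = 4, HFD-IF n = 2). In the urea panel the 4 CC livers lie below all livers of the other regimens, and in the cholesterol panel all 6 fasted livers lie below the fed ones.

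**Figure D5:**
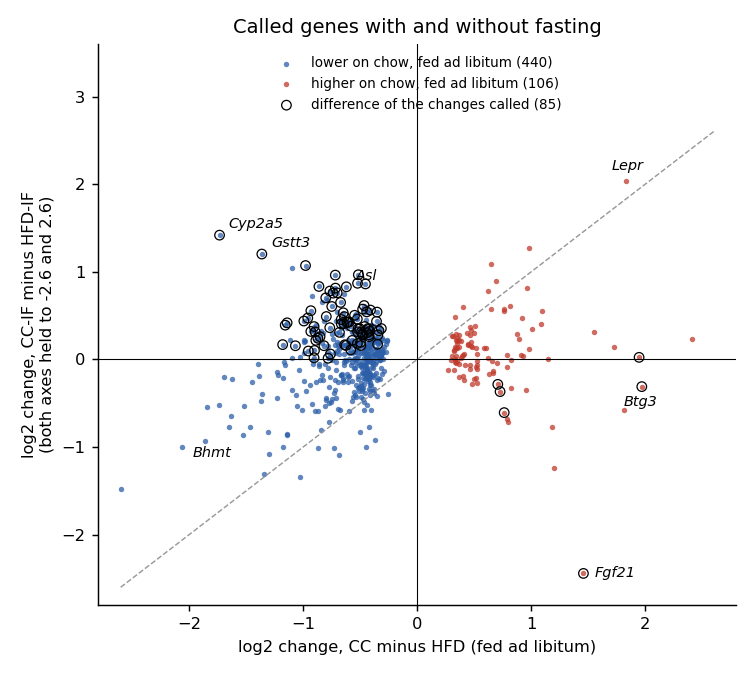
The 546 called genes by their log2 diet change under free feeding (horizontal) and under fasting (vertical), both held to -2.6 and 2.6; red rose and blue fell under free feeding, and rings mark the 85 genes whose difference passed. Lepr lies near the dashed line of equal change, and Fgf21 and Cyp2a5 lie on the opposite side of 0 under fasting.

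In the hippocampus of mice on the same diets, the same contrast called 0 of 12792 genes (0%), with 412 at an unadjusted p under 0.05. Of the genes called in liver, 406 were also tested there, and 173 had the same direction, 42.6%, against 50.02% of the 9848 genes tested in both tissues. Their median absolute change was 0.48 in liver and 0.06 in hippocampus. The difference between tissues was fitted in a model that treats the libraries as independent although the tissues may share mice. It passed for 174 of the 406 and for 2.07% of all 9848. The 406 were chosen by their liver change, which is a term of this difference. Their share and their liver median therefore follow in part from that choice, and no conclusion on the tissues is drawn from them. In hippocampus Fabp5 changed by 0.15, Igfbp2 by -0.52 and Oat by 0.05, none past the threshold.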

How the data were processed

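RNA from about 20 mg of liver was selected for poly-A, and stranded libraries were sequenced as paired reads of 125 bases, per the labels' protocols. The authors deposited 1 table of FPKM for 29 libraries. The submitters' processing notes name FastQC 0.11.9, Trimmomatic 0.39, TopHat2 2.1.1, Bowtie2 2.3.5.1 and the build GRCm38. Which program computed FPKM, on which annotation, and whether libraries were scaled further is not given in the sources used here. Columns were tied to groups by name, and 0 were left without a group. Columns count from 0 and labels from 1, so an index names a library and not a labelled replicate.

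The values were taken as log2(FPKM + 1), so changes of low genes are understated. CC was compared with HFD on the 8 libraries by limma 3.58.1 in R 4.3.3 (lmFit, and eBayes with an intensity trend), two-sided, with Benjamini-Hochberg adjustment over 11332 genes and a threshold of 0.05. Errors after ± are SE for log2 changes and SD for FPKM. Fasted livers were fitted with all 14 liver libraries, and the hippocampus in a fit of its own. Alternatives changed pseudocount, filter, scaling, variance model, weights, block and libraries. Lists were described by counts and medians, with no set test. Sums, permutation tests, promoters and plots used Python 3.11.15, pandas 2.3.3, numpy 2.4.6, scipy 1.17.1 and matplotlib 3.10.9. Gene positions are those of GENCODE M21 (11231 of the 11332 genes matched by symbol), and promoters those of RefSeq.

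Members, lists, tests and the naming rule were chosen with earlier results of these data known. The 50 lists comprise 35 of pathways and functions and 15 of cell type markers. Genes were named when they were among the 8 largest changes per direction with no overlap, the 6 smallest p per direction, or the 6 smallest p of a list with at least 3 calls or 80% of members on one side, or had been chosen by name; predicted genes and near-identical families were left out of the first part. Not every gene so chosen is reported here.

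FPKM holds no direct depth. Reading low values of single-transcript genes as whole fragments gave 9.88 to 15.9 M fragments per liver, with 72.1% to 79.4% of low values within 0.2 of a whole number, where chance gives 40%. This method was chosen after seeing the data, as was an upper limit of 20 M: without it CC 0 came out at 29.6 M, about a multiple of its estimate of 14.4 M, and the other 7 were unchanged. Between 99.4% and 99.9% of summed FPKM lay in genes under 300 nt. Within groups, Pearson's r over genes was 0.965 to 0.985 in 12 pairs, and at least 99.9% of values differed, so no library repeats another. On simulated data for this comparison (11332 genes, 50 changed at each size), 54% of changes of 0.5 on the log2 scale were recovered. The shares were 92% for changes of 1, 96% for 1.5 and 100% for 2, with 9 false among 180 calls. The changed genes were drawn only from those with a mean log2(FPKM + 1) above 2, so recovery of lower genes was not simulated. Noise was independent for each gene and library, without differences shared by the genes of a liver.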

Additional observations from a re-analysis of the deposited data

Results flagged for a closer look

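Chance alone sets a library apart in about 1 in 20 groups of this size by Dixon's test, and here 13 of 214 groups of 4 had 1 library apart from the other 3. Apart on the high side were Cd9 in CC 0 (49.7 FPKM), Acaa1a in CC 3 (80.4 FPKM), Mogat1 in HFD 0 (4.57 FPKM), Srebf1 in CC 0 (110.0 FPKM), Cyp7a1 in CC 1 (28.8 FPKM), Psmb9 in HFD 1 (21.6 FPKM) and Alb in CC 1 (38834 FPKM). Apart on the low side were Rnu12 in CC 2 (97858 FPKM), Bckdhb in HFD 2 (71.4 FPKM), Hadh in HFD 1 (216 FPKM), Fitm1 in HFD 1 (38.4 FPKM), Sdhc in HFD 2 (166 FPKM) and Tubb5 in HFD 0 (39.9 FPKM). For Alb the other CC livers are listed at 0, the fault of the table described above.

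The diet change differed between fasted and fed livers, with an adjusted p under 0.05 for the interaction term by limma, for 21 of the genes named. The values are the log2 change of CC-IF against HFD-IF minus that of CC against HFD. It was negative for Btg3 (-2.28), Adgrf1 (-1.92) and Fgf21 (-3.90). It was positive for Hsd17b10 (1.56), Slc47a1 (1.22), Sult1b1 (1.35), Car5a (1.69), Gpt (1.13), Asl (1.45), Arg1 (1.05), Prodh (1.5) and Gstz1 (0.78). It was also positive for Bckdhb (0.80), Sardh (0.99), Mat1a (1.11), Echs1 (0.69), Cyp2a5 (3.15), Gstt3 (2.56), Akr1d1 (1.68), Abat (0.92) and Pdk2 (0.78). Both diet changes enter this difference, and the fasted one rests on 2 HFD-IF livers. Most of the genes named had been called by the fed change, so the number that passed follows in part from that choice.

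The diet change in liver minus that in hippocampus passed limma's test for 34 of the genes named. The log2 difference was positive for Fabp5 (2.26), Cdc42ep5 (1.86), Cd9 (1.24), Tuba8 (1.09), Rps12 (0.51), Rpl12 (0.55) and Rpl36a (0.63). It was negative and beyond -1 for Clstn3 (-1.70), Sema5b (-1.62), Lrtm1 (-1.60), Msmo1 (-1.55), Oat (-1.42), Aldh1a1 (-1.28), Hmgcs1 (-1.25), Hsd17b10 (-1.18), Mvk (-1.03) and Aldh1b1 (-1.01). It was between -1 and -0.6 for Abat (-0.96), Gpt2 (-0.81), Gpt (-0.80), Actg1 (-0.77), Prodh (-0.77), Asl (-0.73), Sardh (-0.68), Gstz1 (-0.66) and Hadh (-0.62). It was smaller for Bckdhb (-0.58), Pdk2 (-0.58), Shmt2 (-0.58), Ephx2 (-0.52), Ndufb3 (-0.46), Dlst (-0.45), Srebf2 (-0.45) and Sdhc (-0.39). Genes whose expression was too low in hippocampus were not tested there. Most of the genes named had been called by the liver change, a term of this difference, so the number that passed follows in part from that choice.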

How the results depend on the processing

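No called change of a named gene, and no median of the lists below, changed direction under any alternative. Medians near 0 did: that of fatty acid synthesis ran from -0.18 to 0.35 and that of periportal genes from -0.14 to 0.06 without 1 liver. The median change under fasting of the 440 lower genes was 0.06, and -0.04 without HFD-IF 1. The 106 higher and 440 lower genes became 163 and 364 with median-ratio rescaling, 213 and 351 with quantile normalization, 221 and 653 with array weights, and 41 and 253 with the shared spread of all 4 regimens. Leaving out 1 library gave 26 to 189 higher and 156 to 480 lower genes, lowest without HFD 0 and highest without HFD 1. Without both libraries of index 1, an alternative chosen after seeing the data, the counts were 50 and 219, and 206 of the 546 genes kept their call. With a replicate block by column index the counts were 36 higher and 133 lower. Whether the index pairs the samples is not settled: deviations of same-index livers correlated at 0.07, 0.14, -0.01 and 0.12, and 6 of 8 libraries were closest to their own index. The block is therefore not used beside the results.

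Medians of lists kept their sign where they moved by more than the spread between replicates. The urea median was -0.35 with quantile normalization and -0.38 to -0.48 over the fits without 1 library. The one-carbon median was -0.46 at a mean FPKM of at least 5 and -0.24 with quantile normalization, and the pericentral median -0.34 at a pseudocount of 5. The citric acid median was -0.11 with quantile normalization, -0.22 to -0.16 without 1 library and -0.22 without both libraries of index 1. Under fasting, the 86 calls became 1724 without HFD-IF 0 and 11 without HFD-IF 1. The cause of these shifts was not tested. With 4 livers a group, an exact permutation test cannot fall below 0.0286.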

Other observations

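The list of growth hormone signalling and male-biased liver genes had 28 tested members. Of these, 22 had higher means on chow, where 46.4% of all genes did, and 1 passed, Cyp4a12a, a call lost without CC 2. The median was 0.45 and ranged from 0.16 to 0.60 over the fits without 1 liver. Against the HFD mean, the HFD livers spread from -0.61 to 0.80 and the CC livers from 0.19 to 0.58, so HFD 1 lay above all 4 CC livers. In the circadian list 7 of 19 genes had higher means, and 1 passed as lower (Cry2, a clock repressor, -0.67), a call that held in 2 of the 8 fits without 1 liver, where 3.88% of all genes were called lower with all livers. The list's median was -0.47, with CC livers from -0.59 to 0.04 and HFD livers from -0.21 to 0.27. None of 28 genes of lipoproteins and sterol carriers passed limma's test with all 8 livers, and 2 were called higher without HFD 1.

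Several called genes outside the naming rule were picked after their values were seen. Nr1i3, the constitutive androstane receptor that senses foreign compounds, had 55.7, 41.9, 54.7 and 58.4 FPKM on HFD and 16.6, 18.8, 23.2 and 44.5 on chow (-1.10 ± 0.26; limma, adjusted p = 0.0494); CC 3 overlapped the HFD livers, and the call held in 2 of 8 fits without 1 liver. Cyp17a1, a steroid hydroxylase, had 9.88, 12.4, 16.9 and 17.2 FPKM on HFD and 2.81, 4.87, 4.19 and 5.13 on chow (-1.52 ± 0.20; limma, adjusted p = 0.00585). The pattern receptors Tlr5 and Tlr12 changed by -1.06 ± 0.22 and -1.18 ± 0.19 (limma, adjusted p = 0.0321 and 0.0122). Eif2ak3, which encodes PERK, a sensor of the unfolded protein response, rose from 8.07, 6.11, 6.14 and 6.12 to 15.7, 10.9, 9.58 and 12 FPKM (0.76 ± 0.15; limma, adjusted p = 0.0219), although 0 genes of the list fixed for that response passed. Slc7a7, an exporter of basic amino acids, rose as well (0.92 ± 0.16; limma, adjusted p = 0.0165).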
